A study of Mus musculus with 12 samples.

Results

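The 47 genes described here are interferon-stimulated genes, named by symbol and looked up in a table of raw read counts from mouse liver. All 47 were found among its 54838 genes, 1 row each, and all 47 had enough counts to be tested in every comparison. They comprise 4 transcription factors (*Irf1*, *Irf7*, *Irf9* and *Stat2*), 3 sensors of viral RNA (*Ddx58*, *Ifih1* and *Dhx58*), 30 effectors of the type I interferon response and 10 interferon-inducible GTPases.

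Liver RNA came from 12 mice of the inbred strain C57BL/6J, for which the labels name no genetic change. For 7 days the drinking water was plain or held 25 mM ZnSO4, after which the mice were injected i.p. with PBS alone or with 200 µg dexamethasone (Dex), a synthetic ligand of the glucocorticoid receptor, and livers were collected 2 h later. The 4 groups of 3 mice are water-PBS (plain water and PBS, the control), zinc-PBS (ZnSO4 water and PBS), water-Dex (plain water and Dex) and zinc-Dex (ZnSO4 water and Dex). Per the study's methods its mice were used at 8 to 14 weeks of age, and those of this strain were purchased as females. No mouse was given interferon, a virus or TNF, so the levels are those of unchallenged liver, at a single time and a single dose of each agent.

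Interferons are secreted signals that warn cells of infection. Type I interferons bind the receptor made of *Ifnar1* and *Ifnar2*, and the kinases *Jak1* and *Tyk2* then activate a complex that holds *Stat2* and *Irf9* and binds a promoter element called the interferon-stimulated response element (ISRE). Type II interferon (*Ifng*) acts through *Ifngr1* and *Ifngr2* on promoters with a gamma-activated site (GAS), and it is the main inducer of the GTPases that attack the vacuoles of intracellular microbes. In healthy liver these genes are held at a low, tonic level in hepatocytes, Kupffer cells and endothelium, and glucocorticoids are widely used as anti-inflammatory drugs.

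The results turn on a fall of many of these genes 2 h after Dex, so the promoters of the 4 members with the largest called falls in water mice are shown first, with the letters that match an ISRE core (GAAA, any 2 bases, GAAA) or a GAS (TTCNNNGAA), on either strand, in capitals. They are the RefSeq windows of GRCm38.p6 from 250 bases before to 50 bases after a transcription start, all on the plus strand, at chr11:53769764-53770063 for *Irf1*, chr19:34607707-34608006 for *Ifit3b*, chr19:34550444-34550743 for *Ifit2* and chr19:34583279-34583578 for *Ifit3*, each 300 bases long.
Irf1: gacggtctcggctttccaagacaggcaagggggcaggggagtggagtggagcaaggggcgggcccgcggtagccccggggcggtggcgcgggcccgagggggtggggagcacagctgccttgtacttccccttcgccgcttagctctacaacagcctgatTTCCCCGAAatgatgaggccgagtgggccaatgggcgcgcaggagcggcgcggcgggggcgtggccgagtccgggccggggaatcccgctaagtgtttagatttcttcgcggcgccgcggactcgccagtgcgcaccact
Ifit3b: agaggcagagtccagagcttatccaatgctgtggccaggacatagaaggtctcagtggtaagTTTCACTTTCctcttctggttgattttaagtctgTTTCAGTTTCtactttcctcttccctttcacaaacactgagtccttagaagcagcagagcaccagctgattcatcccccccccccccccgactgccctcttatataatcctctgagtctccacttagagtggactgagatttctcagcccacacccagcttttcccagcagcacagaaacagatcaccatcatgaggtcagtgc
Ifit2: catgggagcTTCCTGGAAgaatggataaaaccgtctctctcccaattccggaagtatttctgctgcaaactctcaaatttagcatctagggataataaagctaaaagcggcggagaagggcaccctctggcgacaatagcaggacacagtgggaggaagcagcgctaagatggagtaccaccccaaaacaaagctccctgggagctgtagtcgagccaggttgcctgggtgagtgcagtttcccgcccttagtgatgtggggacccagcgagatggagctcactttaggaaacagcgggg
Ifit3: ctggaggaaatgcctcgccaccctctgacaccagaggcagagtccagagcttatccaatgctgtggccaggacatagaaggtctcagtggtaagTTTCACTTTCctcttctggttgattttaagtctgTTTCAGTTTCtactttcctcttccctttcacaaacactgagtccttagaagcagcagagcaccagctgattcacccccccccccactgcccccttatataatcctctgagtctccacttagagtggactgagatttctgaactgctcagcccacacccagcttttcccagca
*Irf1* had a single GAS match, beginning at position −90 from the start, and no ISRE core. *Ifit3* and *Ifit3b*, neighbouring genes, each had 2 ISRE matches, at −156 and −122 in *Ifit3* and at −188 and −154 in *Ifit3b*, and the *Ifit2* window shown had only a GAS match at −241.

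Windows were found for 37 of the 47 members. Of these, 20 (54.1%) held an ISRE core in at least 1 window, against 3.99% of 27025 genes, and 11 (29.7%) held a GAS, against 9.55%. GTPases with a window held an ISRE core in 7 of 8 cases and a GAS in 4 of 8, effectors in 10 and 6 of 23, and transcription factors in 1 and 1 of 4. In *Irgm2*, *Igtp* and *Tgtp1*, all GTPases, a GAS began at −75, −45 and −88 and an ISRE core followed at −64, −34 and −77. Overlapping matches were counted, and in *Bst2* a GAS match at −136 overlapped an ISRE core at −130. A glucocorticoid receptor element, spelled GNACA, any 3 bases, TGTNC, was in no member's window and in 0.537% of all genes, which says only that these letters were absent there. Of the 25 members with a window that were lower after Dex in water mice (below), 13 held an ISRE core, against 7 of the 12 others, and 5 against 6 held a GAS. These matches describe letters and are not evidence of binding.

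Total counts were 9091152 to 12303527 per library, and 26191 genes had at least 1 count. The zinc and Dex labels were checked with *Mt1* and *Mt2*, metallothioneins induced by zinc, and *Tsc22d3*, a target of the glucocorticoid receptor: *Mt1* rose by 3.87 and *Mt2* by 5.38 on the log2 scale in zinc-PBS against water-PBS, and *Tsc22d3* rose by 2.28 in water-Dex against water-PBS. All 3 genes were called higher in water-Dex against water-PBS, by 2.28 to 6.42, so a rise of *Mt1* and *Mt2* alone does not tell zinc from Dex. In zinc-Dex against water-Dex only 1 of the 3 was called, and the largest value was 0.84, so the zinc label of Dex-injected mice was checked only weakly. Liver identity was checked with 5 hepatocyte markers, whose summed normalized counts were 1130840 to 1338990 in water-PBS. Mouse 1 of zinc-PBS stood apart from the other 2 in its group, with a neutrophil marker sum of 152 against 46.3 and 84.2 and 726 normalized counts of *Tnfaip3* against 44.6 and 81.5, and results that rest on it are given with and without it.

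A normalized count below is the raw count divided by the library's DESeq2 size factor, and it compares mice for 1 gene. To compare genes, levels per length were computed as RPKM, which divides a count by exon length and by the library's total. In water-PBS livers the members spanned 0.520 to 159 RPKM, with a median of 6.84. *Bst2*, which encodes tetherin, the membrane protein that holds budding virus at the cell surface, was highest at 159 ± 10.7 RPKM (SD, n = 3). The GTPase *Iigp1*, which disrupts parasite vacuoles, followed at 124 ± 7.71, then *Ifi27* at 40.2 ± 5.13 and *Lgals3bp* at 33.2 ± 2.203, and the 3 mice of each of these genes lay above all 3 of the next in the order. *Igtp* (30.1), *Trim25* (26.4) and *Irgm2* (23.8) came next, with overlapping neighbours. *Mx1* was lowest at 0.520 ± 0.0766, beside *Oas3* at 0.555 ± 0.0724, and their mice overlapped. C57BL/6 mice are known to carry a non-functional allele of *Mx1*. The median over the GTPases was 10.65 RPKM and over the type I effectors 5.59 RPKM. With whole liver, fewer cells of a type and less RNA per cell cannot be told apart, here or in any result that follows.

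**Figure D1:**
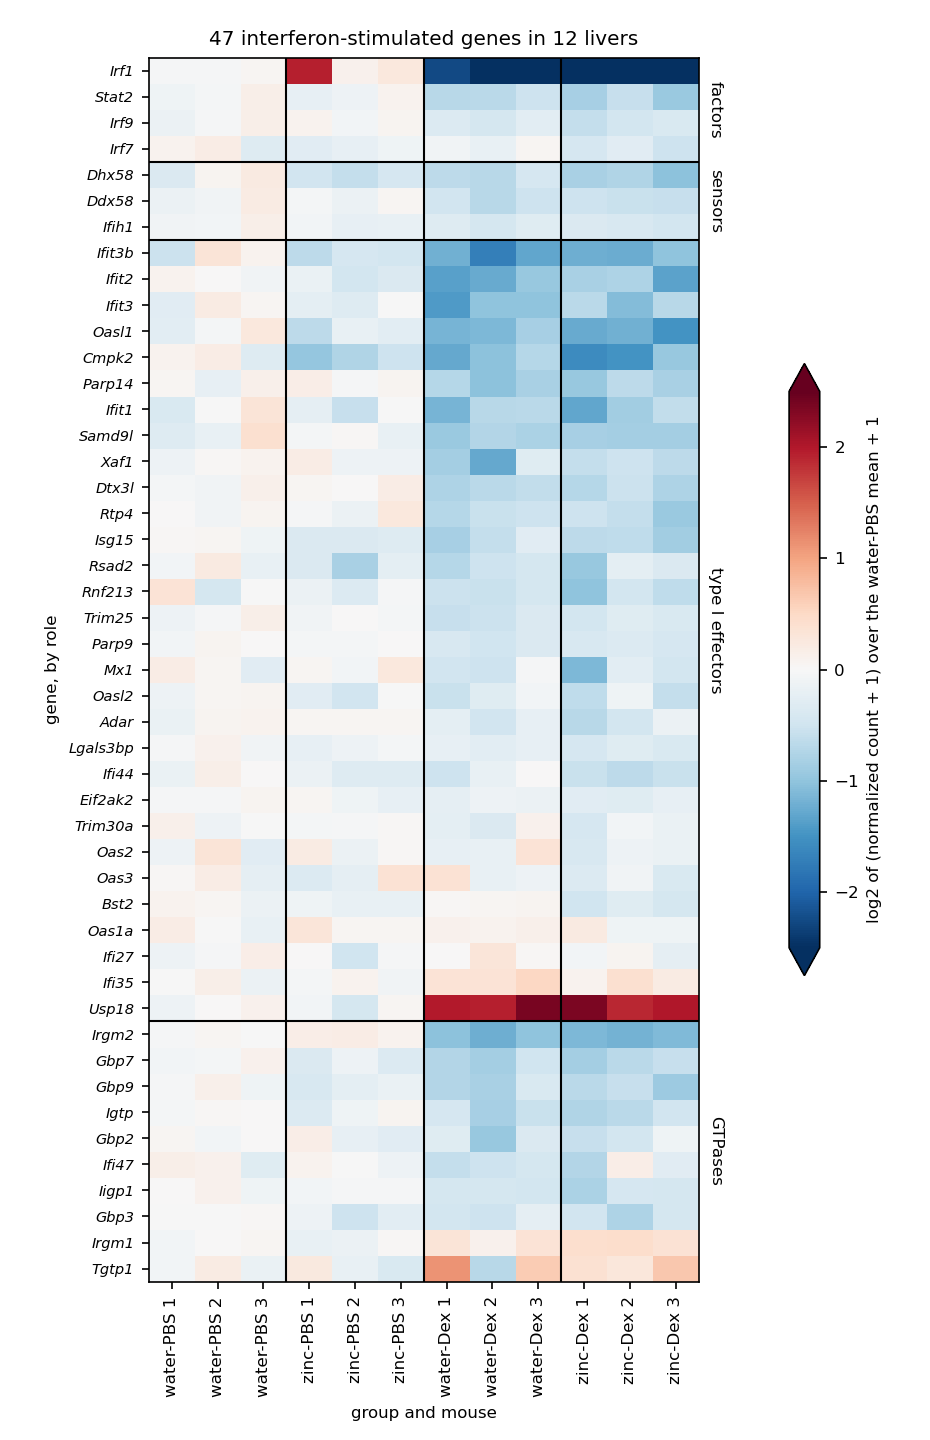
Log2 ratio of each mouse's normalized count (plus 1) to the water-PBS mean (plus 1) for the 47 genes (rows, by role: factors are the transcription factors and sensors the RNA sensors) in the 12 livers (columns); colours stop at ±2.5. Most rows turn blue in the 6 Dex-injected mice whether or not they drank zinc, while Usp18 turns red and the 6 PBS-injected mice are paler, with Irf1 in zinc-PBS mouse 1 the darkest cell among them and some light blue cells in zinc-PBS, Cmpk2 and Rsad2 included.

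Dex lowered many of these genes within 2 h and raised 1 strongly. In water mice, 11 of the 47 were called, meaning an adjusted p under 0.05 with a log2 fold change beyond 0.8 in size: 10 fell (*Irf1*, *Ifit3b*, *Ifit2*, *Ifit3*, *Irgm2*, *Oasl1*, *Cmpk2*, *Parp14*, *Ifit1* and *Samd9l*) and *Usp18* rose. That is 23.4% of the members, beside 9.79% of the 13998 genes tested (4.86% called lower and 4.93% called higher). At an adjusted p under 0.05 and any fold, 31 members were lower, beside 10.1% of all genes, and 3 were higher, beside 11.8%. The median log2 fold change of the members was −0.51, and that of all genes tested −0.01. In 32 members all 3 water-Dex mice lay below all 3 water-PBS mice, beside 19.3% of all genes, in 3 they lay above, beside 20% of all genes, and in 12 the groups overlapped.

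In mice that had drunk zinc, Dex gave fewer calls. There 5 of the 47 were called, 10.6% beside 9.75% of 15521 genes tested (4.71% lower and 5.04% higher): *Irf1*, *Irgm2*, *Oasl1* and *Parp14* fell and *Usp18* rose. At any fold 23 were lower, beside 9.16% of all genes, and 2 were higher, beside 11.1%. The median was −0.37, against −0.01 over all genes, and 33 members had all zinc-Dex mice below all zinc-PBS mice, beside 18.7% of all genes, and 4 had them above, beside 19.6%. The comparisons in water and in zinc mice share no library, but their p-values rest on the same estimate of spread for each gene. Of the 31 and 23 members lower at any fold, 21 were lower in both, 67.7% of the first list and 91.3% of the second. The share of all genes that passed as lower in both was not computed, so the 21 has no background beside it. A negative log2 fold change in both was found in 39 of the 47, beside 40.2% of all genes tested in both. A difference in call between water and zinc mice is not a difference in effect: the interaction of zinc and Dex, which tests it, gave 0 of 47 members (of 26185 genes 0.0191% were called, 0.00382% higher and 0.0153% lower, and at any fold 0.00764% were higher and 0.0153% lower), with 1 higher and 1 lower at an unadjusted p under 0.05 in DESeq2 and 0 called with edgeR. At that unadjusted p the interaction was higher in 279 and lower in 243 of the 26185 genes. In 37 of 47 members the 95% interval of the interaction excluded a log2 difference of 1 in either direction. That bound is larger than the median Dex changes themselves (−0.51 and −0.37), so the count does not show that the effects were equal.

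**Figure D2:**
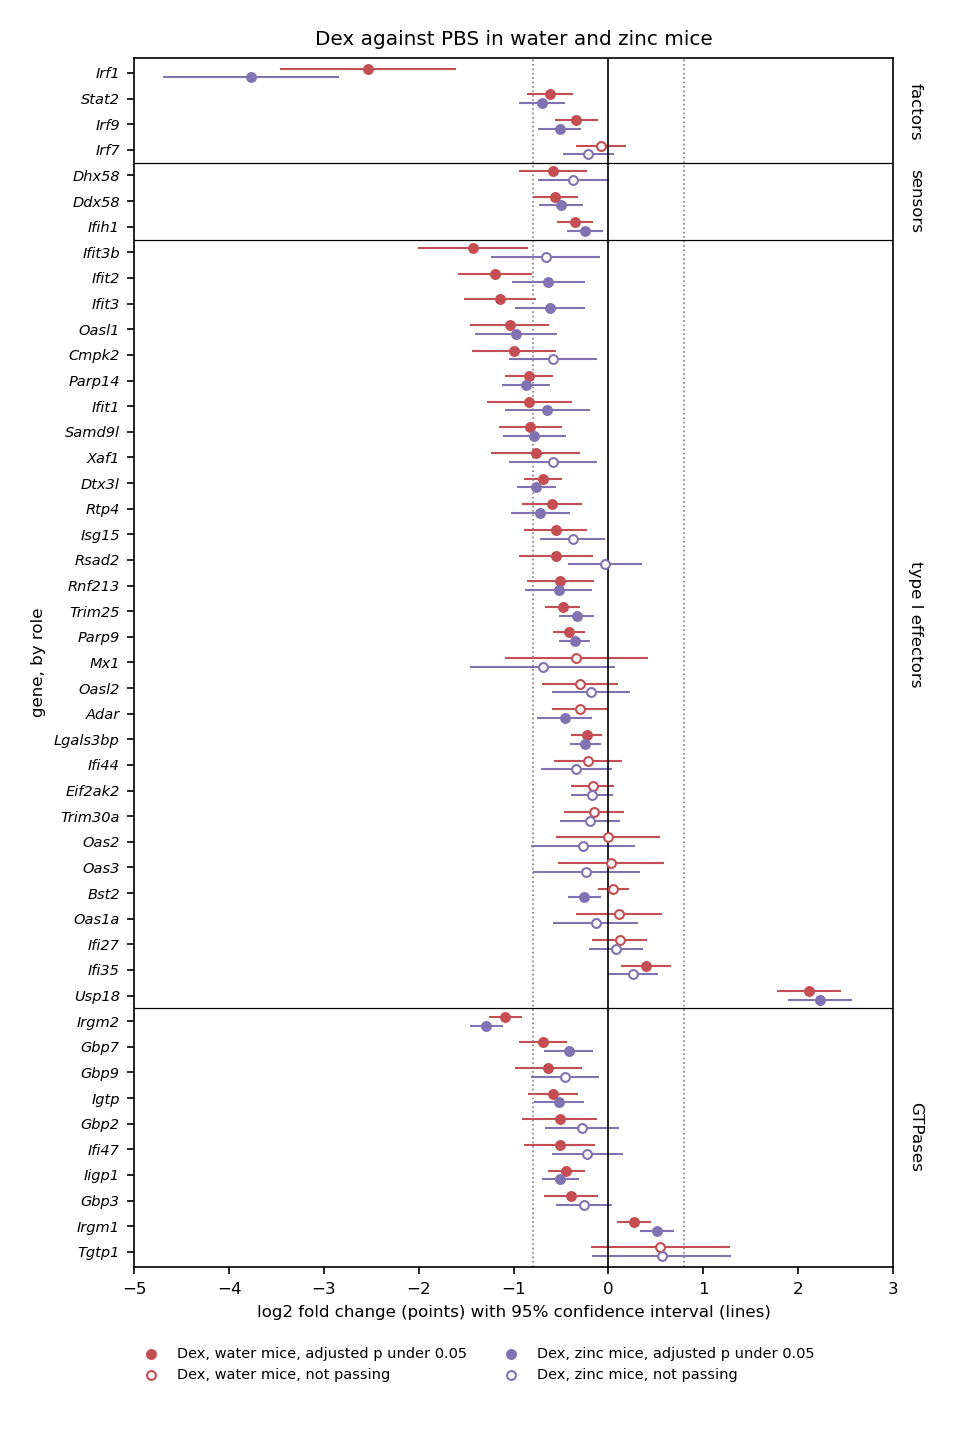
Log2 fold change with its 95% confidence interval for Dex against PBS, for each gene by role (factors are the transcription factors), in water mice (red) and in zinc mice (purple); filled points have an adjusted p under 0.05 and dotted lines mark ±0.8. Points sit left of 0 in 39 of 47 genes in water mice and 42 of 47 in zinc mice, beside 51.3% and 51.1% of all genes tested. Irf1 is farthest left and Usp18 farthest right.

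Among the transcription factors, *Irf1* fell most of all members, *Stat2* and *Irf9* fell by less, and *Irf7* did not pass the test. *Irf1* (chr11:53770014-53778374), which binds IRF elements and is itself induced through a GAS, had normalized counts of 466, 469 and 495 in water-PBS, 98.5, 63.8 and 84.1 in water-Dex, 1824, 517 and 575 in zinc-PBS and 73.9, 56.7 and 83.6 in zinc-Dex. The highest of the 6 Dex-injected mice, at 98.5, was below the lowest of the 6 PBS-injected mice, at 466, and 1 zinc-PBS mouse stood at more than the sum of the others in its group. The log2 fold change was −2.54 (SE 0.47, adjusted p = 1.39e-06) in water mice and −3.77 (SE 0.47, adjusted p = 7.84e-14) in zinc mice, and −2.93 in zinc mice without zinc-PBS mouse 1. *Irf1* overlaps the gene *Gm17334* on the opposite strand, and whether reads were counted by strand is not stated.

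*Stat2* and *Irf9* encode parts of the ISRE-binding complex. *Stat2* had normalized counts of 653, 686 and 785 in water-PBS, 439.6, 446 and 496 in water-Dex, 610.2, 651 and 749 in zinc-PBS and 396, 473 and 372 in zinc-Dex. All Dex-injected mice were below all PBS-injected mice, with log2 fold changes of −0.62 (SE 0.12, adjusted p = 8.01e-06) and −0.70 (SE 0.12, adjusted p = 4.05e-07) in water and zinc mice. *Irf9* had 353, 381 and 432 in water-PBS, 308, 287 and 326 in water-Dex, 411, 372 and 410.1 in zinc-PBS and 257, 281 and 297 in zinc-Dex, again without overlap, and changed by −0.34 (SE 0.12, adjusted p = 0.019) and −0.51 (SE 0.12, adjusted p = 0.000121). The first of these is lost in 6 of 13 alternatives, among them those without water-PBS 2, water-PBS 3, water-Dex 1, water-Dex 2 or with the replicate block (adjusted p up to 0.164).

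*Irf7*, the factor that amplifies the type I response, had 579, 619 and 435 in water-PBS, 509, 476 and 564 in water-Dex, 449.5, 469 and 504 in zinc-PBS and 407, 445 and 378 in zinc-Dex. Water-Dex overlapped water-PBS, and the log2 fold change was −0.08 (SE 0.13, adjusted p = 0.759) there and −0.21 (SE 0.14, adjusted p = 0.313) in zinc mice, where the groups did not overlap. Between zinc-Dex and water-Dex, zinc-Dex was lower in every mouse, with −0.33 (SE 0.14, adjusted p = 0.283), which did not pass.

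The 3 RNA sensors were lower in water mice at any fold, and 2 of 3 in zinc mice, none past the fold threshold. *Ddx58* encodes RIG-I, *Ifih1* encodes MDA5 and *Dhx58* their regulator LGP2. *Ifih1* had 646, 649.8 and 750.1 in water-PBS, 545, 501 and 552 in water-Dex, 653, 590.1 and 598 in zinc-PBS and 530.0, 519.8 and 499 in zinc-Dex, with every water-Dex mouse below every water-PBS mouse and the same in zinc mice. Its log2 fold change was −0.35 (SE 0.10, adjusted p = 0.00187) in water mice and −0.25 (SE 0.10, adjusted p = 0.0469) in zinc mice, the second of which passed in 3 of 13 alternative analyses. *Ddx58* changed by a log2 of −0.56 and −0.50 (adjusted p 4.16e-05 and 0.000315), and *Dhx58* changed by −0.59 and −0.37 (adjusted p 0.00969 and 0.18), the first of which is lost in 4 of 13 alternatives, each without 1 library (adjusted p up to 0.113).

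Of the 30 type I effectors, 8 were called lower and 1 higher in water mice, and at any fold 17 were lower and 2 higher, with a median log2 fold change of −0.45. Of all genes 4.86% were called lower and 4.93% higher, and 10.1% and 11.8% at any fold. In zinc mice 2 were called lower and 1 higher, and at any fold 14 were lower and 1 higher, with a median of −0.36. Of all genes 4.71% were called lower and 5.04% higher there, and 9.16% and 11.1% at any fold, so the share of effectors called, 10%, was near the 9.75% of all genes. In water mice *Ifit3b*, *Ifit2* and *Ifit3* had the lowest log2 fold changes of the effectors, and in zinc mice *Oasl1*, *Parp14* and *Samd9l* did. The Ifit proteins bind foreign RNA and block its translation. *Ifit3* (chr19:34583531-34588731) had normalized counts of 139, 196 and 175 in water-PBS, 62.9, 84.02 and 84.1 in water-Dex, 144, 135 and 167 in zinc-PBS and 105, 79.98 and 105 in zinc-Dex. Every Dex-injected mouse was below every PBS-injected mouse, and zinc-Dex overlapped water-Dex. The fold change was 0.45 in water mice, a log2 of −1.14 (SE 0.19, adjusted p = 7.91e-08), and a log2 of −0.62 (SE 0.19, adjusted p = 0.00839) in zinc mice.

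*Ifit3b* (chr19:34607970-34613401) had 44.1, 80.99 and 69.2 in water-PBS, 27.4, 19.1 and 25.7 in water-Dex, 40.6, 48.1 and 47.1 in zinc-PBS and 27.2, 26.7 and 31.7 in zinc-Dex, and *Ifit2* (chr19:34550694-34576419) had 143, 135 and 126 in water-PBS, 51.8, 55.3 and 69.3 in water-Dex, 120.0, 97.03 and 104 in zinc-PBS and 76.03, 78.9 and 52.9 in zinc-Dex. In both genes the Dex-injected mice lay below the PBS-injected mice. *Ifit3b* changed by −1.43 (SE 0.29, adjusted p = 1.69e-05) in water mice and by −0.66 (SE 0.29, adjusted p = 0.0955) in zinc mice, and *Ifit2* by −1.19 (SE 0.20, adjusted p = 4.21e-08) and −0.64 (SE 0.20, adjusted p = 0.00892). *Ifit1* (chr19:34640871-34650009) had 154, 199 and 250.4 in water-PBS, 89.3, 123 and 126 in water-Dex, 172, 135 and 200.1 in zinc-PBS and 81.5, 110.0 and 132 in zinc-Dex. It changed by −0.84 (SE 0.23, adjusted p = 0.00216) and −0.64 (SE 0.23, adjusted p = 0.0288). In zinc mice *Ifit1*, *Ifit2* and *Ifit3* each missed an adjusted p of 0.05 in 2 to 4 of the 6 fits without 1 of their libraries. The transcripts of *Ifit3* and *Ifit3b* share many of their 50-base windows with another gene, chiefly each other (51.2% for *Ifit3*), and since multimapping reads were excluded their separate levels are uncertain. The interaction estimates for *Ifit2*, *Ifit3* and *Ifit3b* were 0.56, 0.53 and 0.77 on the log2 scale, with 95% intervals of 0.01 to 1.11, −0.01 to 1.06 and −0.05 to 1.58 and adjusted p = 1 for each.

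*Usp18* was the only member called higher. Its product removes *Isg15* from proteins and restrains signalling at the type I receptor. *Usp18* (chr6:121245906-121270917) had 148, 164 and 174 in water-PBS, 639, 623 and 841 in water-Dex, 155, 119.8 and 168 in zinc-PBS and 832, 599.8 and 652 in zinc-Dex. The lowest Dex-injected mouse, at 599.8, was above the highest PBS-injected mouse, at 174, and the 2 Dex groups overlapped. The rise was 4.33-fold in water mice, a log2 of 2.12 (SE 0.17, adjusted p = 1.54e-32), and 4.70-fold in zinc mice, a log2 of 2.23 (SE 0.17, adjusted p = 2.12e-36), and it was called in each alternative run. *Usp18* overlaps *Gm44148* on the opposite strand. *Isg15*, the ubiquitin-like protein that *Usp18* removes, moved the other way, with 146, 148 and 133 in water-PBS, 80.2, 93.6 and 117 in water-Dex, 111, 111 and 113 in zinc-PBS and 90.2, 91.1 and 77.9 in zinc-Dex. *Isg15* was lower after Dex in every mouse of both comparisons, by −0.56 (SE 0.17, adjusted p = 0.00735) in water mice and −0.37 (SE 0.17, adjusted p = 0.121) in zinc mice, where it did not pass. The first is lost without water-PBS 2, water-Dex 1 or water-Dex 2 (adjusted p up to 0.0923).

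*Oasl1*, an oligoadenylate synthetase-like protein that restrains translation of *Irf7*, fell in both settings (chr5:114923240-114937915). It had 105, 122 and 152 in water-PBS, 55.8, 57.4 and 70.2 in water-Dex, 80.3, 110.1 and 105 in zinc-PBS and 52.1, 54.4 and 44.2 in zinc-Dex. The groups did not overlap, and the log2 fold change was −1.04 (SE 0.21, adjusted p = 1.26e-05) and −0.98 (SE 0.22, adjusted p = 0.000117). The enzymes *Oas1a*, *Oas2* and *Oas3*, which make the messenger that activates RNase L, did not pass in any comparison. *Oas1a* had 54.6, 47.3 and 41.7 in water-PBS, 51.8, 51.1 and 52.4 in water-Dex, 59.6, 49.8 and 49.8 in zinc-PBS and 56.5, 44.4 and 44.2 in zinc-Dex, with all groups overlapping and a log2 fold change of 0.11 (SE 0.23, adjusted p = 0.805) in water mice, and 57.6% of its 50-base windows are shared, chiefly with Oas1g. *Mx1*, a dynamin-like antiviral protein, had 23.1, 20.9 and 16.5 in water-PBS, 14.2, 13.8 and 19.8 in water-Dex, 20.8, 19.2 and 24.4 in zinc-PBS and 8.69, 16.7 and 14.4 in zinc-Dex, and changed by −0.34 (SE 0.38, adjusted p = 0.609) and −0.69 (SE 0.39, adjusted p = 0.228). At these counts the interval of the *Mx1* difference was wide, −1.09 to 0.41 in water mice.

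*Rsad2* and *Cmpk2* are neighbouring genes of antiviral nucleotide metabolism, viperin and a mitochondrial nucleotide kinase. *Cmpk2* (chr12:26469204-26479837) had 155, 167 and 116 in water-PBS, 59.9, 71.3 and 89.05 in water-Dex, 74.02, 86.5 and 102 in zinc-PBS and 48.9, 51.1 and 74.97 in zinc-Dex. In water mice Dex changed it by −0.998 (SE 0.23, adjusted p = 0.000117), without overlap. In zinc mice, where zinc-Dex mouse 3 at 75.0 overlapped zinc-PBS mouse 1 at 74.0, it changed by −0.58 (SE 0.24, adjusted p = 0.066). *Rsad2* had 227, 278 and 211 in water-PBS, 145, 167 and 176 in water-Dex, 185, 136 and 201 in zinc-PBS and 123, 201 and 185 in zinc-Dex. It was lower after Dex in every water mouse, −0.55 (SE 0.20, adjusted p = 0.0277), and overlapped in zinc mice, −0.04 (SE 0.20, adjusted p = 0.935), and the first is lost without independent filtering and without water-PBS 2, water-Dex 1 or water-Dex 2 (adjusted p up to 0.201).

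*Parp14*, an ADP-ribosyltransferase, and *Samd9l*, a restriction factor, were called in water mice. *Parp14* (chr16:35832874-35871544) had 633, 529 and 669 in water-PBS, 374, 299 and 348 in water-Dex, 683, 594 and 640.1 in zinc-PBS and 314, 389.9 and 348 in zinc-Dex, and changed by −0.84 (SE 0.13, adjusted p = 1.89e-09) and −0.87 (SE 0.13, adjusted p = 4.09e-10) with no overlap. *Samd9l* (chr6:3372257-3399572) had 303, 331 and 499 in water-PBS, 197, 225 and 217 in water-Dex, 367, 384 and 332 in zinc-PBS and 211, 209.9 and 209.5 in zinc-Dex. It changed by −0.82 (SE 0.17, adjusted p = 1.48e-05) and −0.78 (SE 0.17, adjusted p = 4.86e-05), with all Dex-injected below all PBS-injected mice, and without water-PBS mouse 3, the highest, it fell by 0.58 and was no longer past the fold threshold. In water mice *Samd9l*, *Parp14* and *Ifit1* were each called in 11 of 13 alternatives, and in zinc mice *Parp14* was called in 12 of 13. The partners *Parp9* and *Dtx3l*, which form a complex and overlap each other on opposite strands, changed by a log2 of −0.42 and −0.69 in water mice and −0.35 and −0.76 in zinc mice. *Rtp4*, *Trim25* (a ligase for RIG-I), *Rnf213* and *Lgals3bp* were also lower in both at any fold, by a log2 of −0.23 to −0.60 in water mice, of which the *Lgals3bp* results are lost in 8 and 6 of 13 alternatives and those of *Rnf213* in 5 and 3. *Xaf1* passed only in water mice (−0.77 against −0.58) and *Adar*, the RNA editing enzyme, only in zinc mice (−0.30 against −0.46), each lost in 4 of 13 alternatives (adjusted p up to 0.126 and 0.13), and neither difference passed the interaction test.

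*Ifi35* was higher in water mice at any fold, by 0.40 (SE 0.13, adjusted p = 0.0175), a result lost in 5 of 13 alternatives, which were the replicate block, only the 6 libraries compared, and without water-PBS 1, water-PBS 3 or water-Dex 3 (adjusted p up to 0.136). *Ifi27*, next in level after *Bst2* and *Iigp1*, had 547, 586 and 671 in water-PBS, 607, 737 and 612 in water-Dex, 607, 428 and 593 in zinc-PBS and 572, 633 and 517 in zinc-Dex. Its groups overlapped in each comparison, and Dex changed it by 0.12 (SE 0.15, adjusted p = 0.651) in water mice. The remaining effectors that did not pass in either Dex comparison were *Oas2*, *Oas3*, *Oasl2*, *Eif2ak2* (PKR), *Ifi44* and *Trim30a*, with log2 fold changes of −0.34 to 0.03, read over both comparisons.

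Among the 10 GTPases only *Irgm2* was called, 10% in each Dex comparison and so near the 9.79% and 9.75% of all genes, and the median log2 fold change was −0.52 in water mice and −0.35 in zinc mice. At any fold 8 were lower and 1 higher in water mice, and 4 lower and 1 higher in zinc mice, beside 10.1% lower and 11.8% higher of all genes in water mice and 9.16% and 11.1% in zinc mice. The 8 include *Gbp2*, *Gbp3* and *Ifi47*, whose results at any fold are lost in 6 or more of 13 alternatives, and without water-PBS 2 or water-Dex 2 the count of 8 became 4. Summed over the 10, normalized counts were 10571 to 11749.7 in water-PBS, 10611 to 10864 in zinc-PBS, 7979.9 to 8473 in water-Dex and 7106 to 8582 in zinc-Dex, of which *Iigp1* held the largest share. Summed over the 30 effectors they were 10683 to 11167, 9739.9 to 10473, 8693 to 9597 and 8038 to 8823. In neither sum did Dex-injected mice overlap PBS-injected mice.

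The regulators *Irgm1*, *Irgm2* and *Igtp*, which guard a cell's own membranes from the effector GTPases, did not move together. *Irgm2* (chr11:58199618-58222782) had 878, 924 and 888 in water-PBS, 438, 384 and 444 in water-Dex, 1008, 1026 and 947 in zinc-PBS and 408, 394 and 417 in zinc-Dex. The highest of its 6 Dex-injected mice, at 444, was below the lowest of its 6 PBS-injected mice, at 878, and the log2 fold change was −1.09 (SE 0.09, adjusted p = 1.34e-32) in water mice and −1.29 (SE 0.09, adjusted p = 5.04e-46) in zinc mice. *Igtp* had 601, 637 and 630.4 in water-PBS, 467, 352 and 423 in water-Dex, 492, 577 and 655 in zinc-PBS and 368, 389.9 and 446 in zinc-Dex, lower after Dex without overlap, by −0.59 (SE 0.13, adjusted p = 0.000137) and −0.52 (SE 0.13, adjusted p = 0.00119). *Irgm2* and *Igtp* overlap on the same strand and share 7.77% and 11.8% of their 50-base windows.

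*Irgm1*, by contrast, was higher after Dex. It had 899, 946 and 969 in water-PBS, 1178, 1017 and 1195 in water-Dex, 824, 844 and 954 in zinc-PBS and 1263, 1275 and 1209 in zinc-Dex (chr11:48861968-48871683). The lowest water-Dex mouse was above the highest water-PBS mouse, and likewise in zinc mice. The log2 fold change was 0.27 (SE 0.09, adjusted p = 0.0195) in water mice, lost in 6 of 13 alternatives (adjusted p up to 0.144), and 0.51 (SE 0.09, adjusted p = 3.33e-07) in zinc mice, kept in 13 of 13. Both are under the fold threshold.

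*Iigp1*, an effector GTPase, had 7426, 7922 and 6828 in water-PBS, 5478, 5425 and 5403 in water-Dex, 7087, 7274 and 7209.9 in zinc-PBS and 4244, 5505 and 5433 in zinc-Dex. It was lower after Dex in every mouse, by −0.44 (SE 0.10, adjusted p = 0.0001) and −0.51 (SE 0.10, adjusted p = 5.87e-06). *Tgtp1* was the other GTPase with positive values, 0.55 (SE 0.38, adjusted p = 0.338) and 0.56 (SE 0.38, adjusted p = 0.336), neither of which passed, and 81.2% of its 50-base windows are shared, chiefly with Tgtp2. The guanylate-binding protein *Gbp2* had 144, 132 and 139 in water-PBS, 112, 71.3 and 107 in water-Dex, 155, 119.8 and 114 in zinc-PBS and 92.3, 99.97 and 128 in zinc-Dex, with no overlap in water mice (−0.52 (SE 0.20, adjusted p = 0.0482)) and overlap in zinc mice (−0.28 (SE 0.20, adjusted p = 0.383)). *Gbp7* was lower in both, by a log2 of −0.69 and −0.42, and *Gbp3*, *Gbp9* and *Ifi47* passed in water mice only, with −0.39, −0.63 and −0.51. The results for *Gbp7* in zinc mice and *Gbp9* in water mice are each lost in 2 of 13 alternatives.

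**Figure D3:**
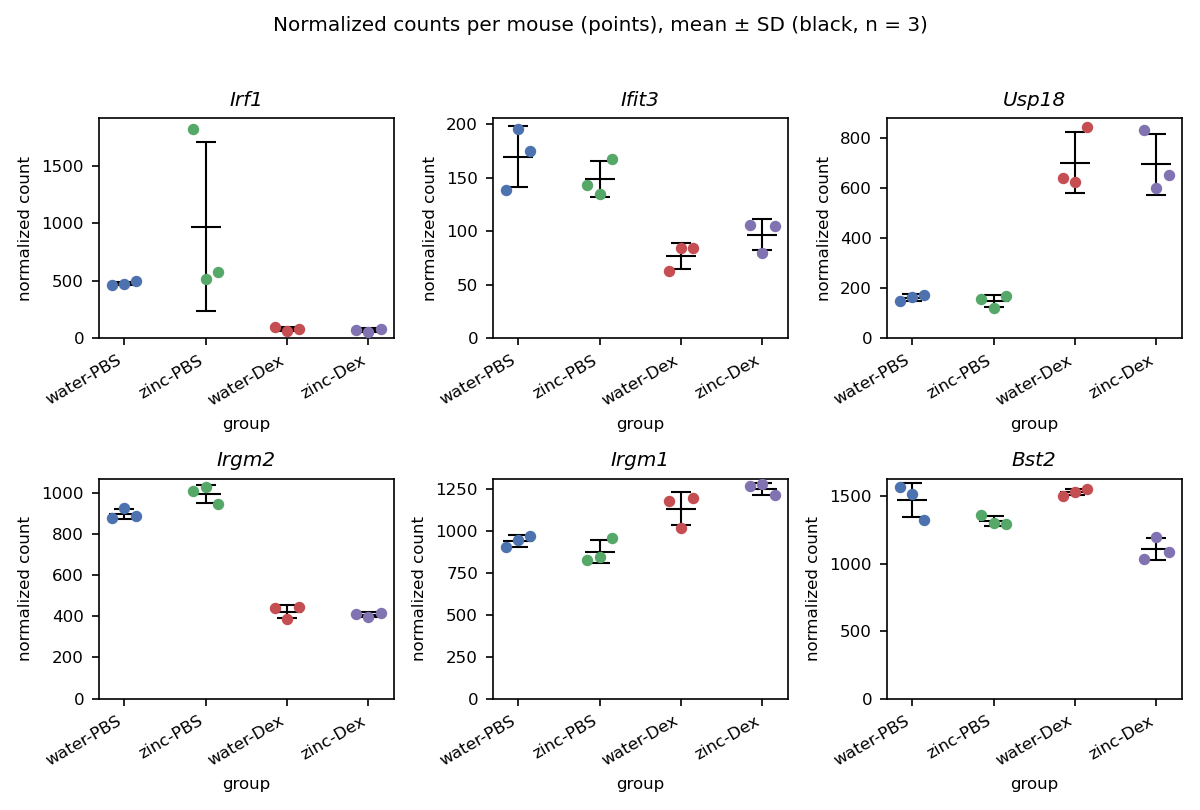
Normalized counts of 6 members in each mouse (coloured points) with the group mean and SD (black, n = 3), 1 panel per gene with its own axis from 0. Irf1, Ifit3 and Irgm2 are lower in both Dex groups, Usp18 and Irgm1 are higher, and Bst2 is lower in zinc-Dex than in water-Dex.

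Zinc alone changed none of these genes past the test in the fit used here. Of the 47, 0 were called in zinc-PBS against water-PBS by DESeq2 and 0 by edgeR, beside 0.142% of 11967 genes tested (0.0836% higher and 0.0585% lower), and 0 passed at any fold, beside 0.217% higher and 0.134% lower. At an unadjusted p under 0.05, 1 was higher and 7 were lower, beside 401 higher and 299 lower of all 11967 genes tested. The median log2 fold change was −0.09, against −0.000746 over all genes, 37 of 47 values were negative beside 50.2% of all genes, and 8 members had all zinc-PBS mice below all water-PBS mice, beside 6.07% of all genes, while 2 had them above, beside 5.89%. The lowest was *Cmpk2*, with 74.0, 86.5 and 102 in zinc-PBS against 155, 167 and 116 in water-PBS and a log2 fold change of −0.74 (SE 0.22, adjusted p = 0.134). Without water-PBS mouse 3 it was −0.88 and called. The paper's own list of liver genes changed by zinc does include *Cmpk2*, as reduced past its cut-offs for fold and p. The absence of a call for *Cmpk2* here therefore differs from the paper, and the cause of that difference was not tested. *Isg15* (−0.35), *Rsad2* (−0.46), *Dhx58* (−0.50), *Ifit2* (−0.33), *Gbp3* (−0.30), *Gbp7* (−0.27) and *Gbp9* (−0.27) were the other 7 without overlap, with adjusted p between 0.415 and 1. *Irf1* had the largest positive value, 1.03 (SE 0.46, adjusted p = 0.73), which was 0.20 without zinc-PBS mouse 1.

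On top of Dex, zinc lowered 1 member past the test, *Bst2*. *Bst2* (chr8:71534255-71537456) had normalized counts of 1571, 1519 and 1327 in water-PBS, 1505, 1529 and 1550.4 in water-Dex, 1358, 1302 and 1291 in zinc-PBS and 1035, 1194 and 1087 in zinc-Dex. The zinc-Dex mice were the lowest of the 12, and the log2 fold change against water-Dex was −0.47 (SE 0.09, adjusted p = 5.95e-05), a fold of 0.72, under the fold threshold, so 0 of 47 were called beside 0.473% of 12475 genes (0.305% higher and 0.168% lower). Among members 3 were lower and 0 higher at an unadjusted p under 0.05, and 0 were called with edgeR. Of all 12475 genes tested, 524 were lower and 764 higher at that unadjusted p. At any fold 1 member was lower, beside 0.457% of all genes, and 0 were higher, beside 0.93%. In 6 members all zinc-Dex mice lay below all water-Dex mice, beside 9.9% of all genes, and in 1 above, beside 10.3%. *Bst2* passed in 13 of 13 alternatives (adjusted p up to 0.0312). In PBS-injected mice zinc changed *Bst2* by −0.16 (SE 0.09, adjusted p = 0.869), and the interaction was −0.31 (95% interval −0.54 to −0.07, unadjusted p = 0.0118, adjusted p = 1), so a different effect of zinc with and without Dex was not shown. Dex changed *Bst2* by 0.05 (SE 0.09, adjusted p = 0.735) in water mice and −0.25 (SE 0.09, adjusted p = 0.021) in zinc mice, the second kept in 6 of 13 alternatives. The median over the members was again −0.09 and 34 of 47 values were negative, beside 49.5% of all genes. The zinc comparisons with PBS and with Dex share no library, and 26 members were negative in both, beside 30.2% of all genes tested in both.

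**Figure D4:**
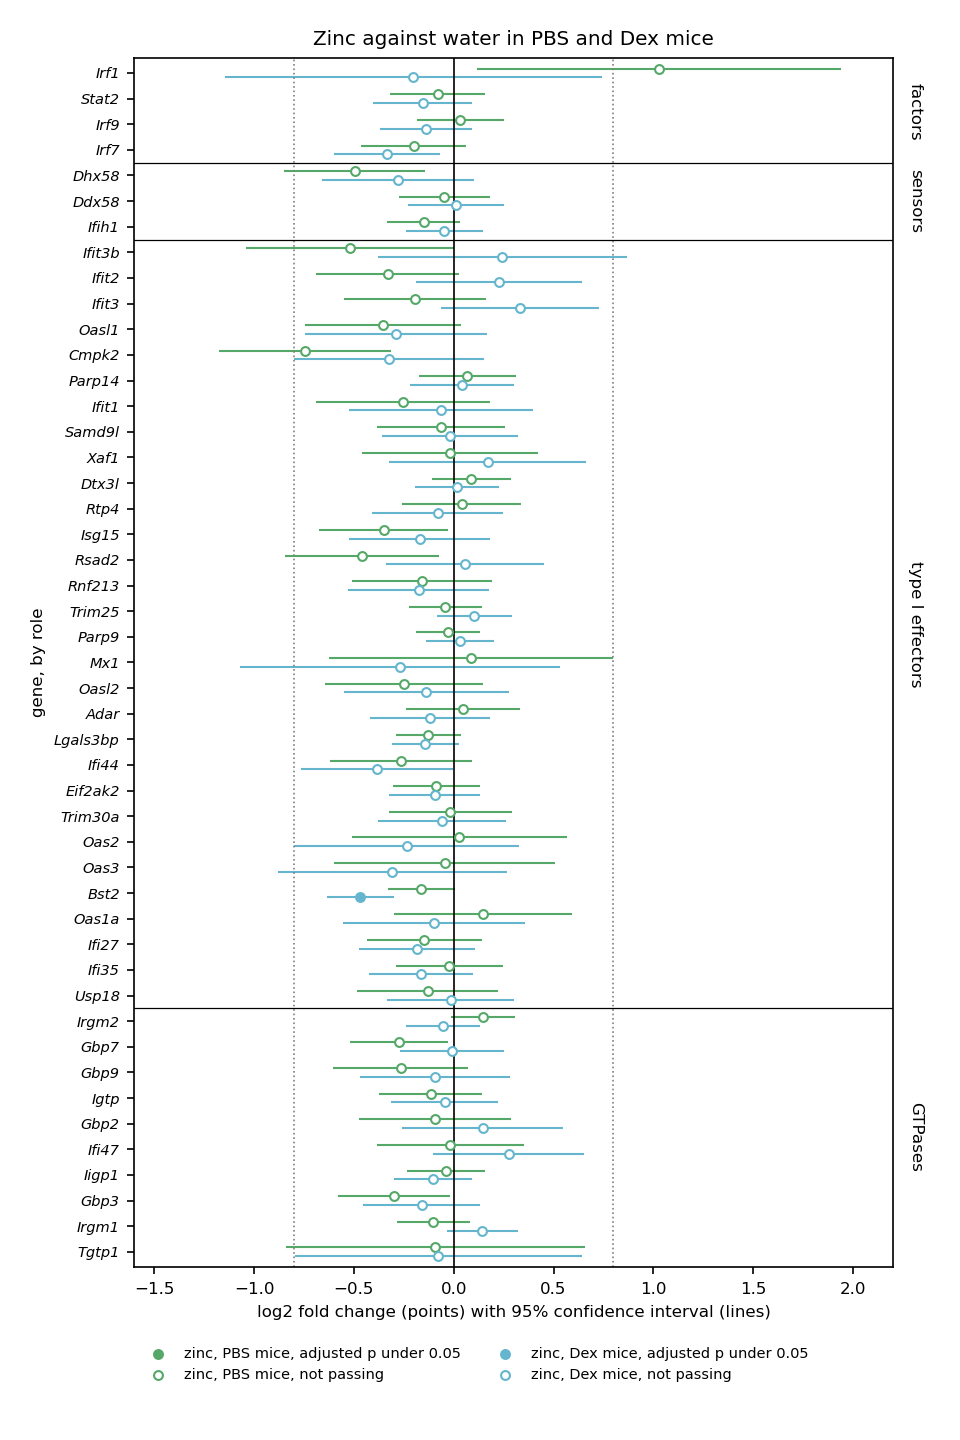
Log2 fold change with its 95% confidence interval for zinc against water, for each gene by role (factors are the transcription factors), in PBS-injected (green) and Dex-injected mice (blue); filled points have an adjusted p under 0.05 and dotted lines mark ±0.8. Bst2 in Dex-injected mice is the only filled point, and Irf1 in PBS-injected mice has the highest value, with a wide unadjusted interval of 0.12 to 1.94 and an adjusted p of 0.73.

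For the rest of the pathway a list of 44 genes was used. Of 12 interferon genes, 10 had 0 counts in all 12 libraries, *Ifng* had 1 to 3 counts in the water-PBS mice and 0 elsewhere, and *Ifnk* had 1 count in 1 mouse, so no ligand could be tested. A count of 0 is compatible with an expected count of up to 3 in a library. Multimapping reads were excluded, so any reads shared between similar interferon genes would be missing from these counts. Of the 30 pathway genes tested in water mice, 9 were lower and 4 higher after Dex at any fold, and of 31 in zinc mice 10 were lower and 4 higher. Of all genes 10.1% were lower and 11.8% higher in water mice, and 9.16% and 11.1% in zinc mice, so the counts of higher genes were near the background. Zinc passed for 0 of 28 without Dex and for 1 of 28 with Dex, *Traf3* (lower, −0.60, adjusted p = 0.0495, lost in 10 of 13 alternatives). Of all genes, zinc passed for 0.217% higher and 0.134% lower without Dex, and for 0.93% and 0.457% with Dex. The paper's list of liver genes changed by zinc does include *Tnfaip3*, as induced, which did not pass here without Dex.

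Of the receptors and kinases, *Ifnar1*, *Ifngr2*, *Ifnar2* and *Il10rb* were lower in water mice, by a log2 of −0.30, −0.44, −0.26 and −0.80, and *Ifnar1*, *Ifngr2* and *Jak2* in zinc mice, by −0.43, −0.71 and −0.35. In water mice all 4 of these results are lost in 3 to 10 of 13 alternatives, and in zinc mice *Jak2* is lost in 7. Among the other transcription factors of the list, *Irf5*, a factor of macrophage activation, fell in both settings, from 244, 238 and 179 in water-PBS, 94.4, 94.7 and 81.1 in water-Dex, 228, 249 and 243 in zinc-PBS and 70.6, 94.4 and 92.3 in zinc-Dex, by −1.29 (SE 0.17, adjusted p = 7.04e-13) and −1.48 (SE 0.17, adjusted p = 8.34e-17). *Irf2*, which can oppose *Irf1*, rose in water mice by 0.51.

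Among the proteins that sense nucleic acids and relay to interferon, *Tlr3*, the receptor for double-stranded RNA, changed by −1.02 (SE 0.21, adjusted p = 2.23e-05) in water mice and −0.78 (SE 0.20, adjusted p = 0.00124) in zinc mice, while *Tlr7*, the receptor for single-stranded RNA, rose by 1.12 (SE 0.20, adjusted p = 5.65e-07) and 1.39 (SE 0.20, adjusted p = 1.23e-10). *Ticam1*, the adaptor of *Tlr3*, rose by 0.68 (SE 0.14, adjusted p = 1.01e-05) and 1.13 (SE 0.14, adjusted p = 6.47e-15). *Mavs*, the adaptor of the RNA sensors, was lower in both, by −0.35 (lost in 4 of 13 alternatives, adjusted p up to 0.0982) and −0.45, and *Traf3* in zinc mice, by −0.69.

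Of the negative regulators, *Socs3*, which blocks Jak kinases, had 110.3, 128 and 75.8 in water-PBS, 12.2, 22.3 and 11.9 in water-Dex, 701, 83.9 and 146 in zinc-PBS and 14.1, 22.2 and 14.4 in zinc-Dex, and changed by −2.76 (SE 0.74, adjusted p = 0.00176) and −4.20 (SE 0.74, adjusted p = 2.61e-07), the latter −2.77 without zinc-PBS mouse 1. *Ptpn6* was lower in water mice (−0.63) and *Ptpn2* higher in both (0.37 and 0.37, results lost in 7 or 8 of 13 alternatives), and *Pias1* was higher in zinc mice (0.45). *Tnfaip3* was called lower in zinc mice at −2.57, with overlapping groups, and was −0.40 and not called without zinc-PBS mouse 1.

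Cell markers were set beside these results. The summed normalized counts of 11 Kupffer cell and macrophage markers were 6569.6 to 9078 in water-PBS, 7687 to 8048 in zinc-PBS, 7171 to 8906 in water-Dex and 7353 to 8124 in zinc-Dex, overlapping, and 0 of 11 passed in any comparison. Of all genes, 10.1% were lower and 11.8% higher at any fold with Dex in water mice, and 9.16% and 11.1% in zinc mice. The 5 hepatocyte markers summed to 1130840 to 1338990, 1198980 to 1343390, 1495940 to 1591520 and 1531150 to 1632000, higher after Dex without overlap, and their part in the results was not tested. Most of that sum was *Alb*, with a mean of 1059940 in water-PBS. At any fold 4 of these 5 markers passed as higher after Dex in water mice and 3 in zinc mice. The 5 sinusoidal endothelial markers summed to 2635 to 2974, 2812 to 2952, 2946 to 3205 and 3099.9 to 3267, higher after Dex without overlap in zinc mice and with overlap in water mice. *Lyve1* was called higher (2.53 in water mice) and *Kdr* called lower (−1.14) after Dex, and the part of the endothelial markers was not tested either. The 10 lymphocyte markers summed to 94.4 to 110.3, 87.4 to 143, 81.2 to 90.04 and 97.7 to 111, lower after Dex in water mice without overlap, and their part was not tested. *Ms4a1* was called lower in water mice (−2.80) on few reads, with means of 9.48 normalized counts in water-PBS and 1.37 in water-Dex. The lymphocyte markers did not move together: of the 8 tested in that comparison, 5 had negative and 3 positive log2 fold changes. *Il2rb*, with the highest counts of the 10, had means of 44.3 in water-PBS and 43.9 in water-Dex. The 5 plasmacytoid dendritic cell markers summed to 12.1 to 13.7, 7.22 to 20.8, 7.44 to 15.8 and 7.69 to 8.89, with zinc-Dex below water-PBS but each compared pair of groups overlapping. The 6 neutrophil markers, at 36.7 to 152 over the 12 mice, overlapped between all groups, and their defining marker *Ly6g* had 2 raw counts in all.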

How the data were processed

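Single-end stranded TruSeq libraries of liver RNA had been sequenced on a NextSeq 500. Per the labels and the study's methods, the authors mapped reads to mm10 with HISAT2 2.0.4 and made raw read counts per Ensembl gene with featureCounts, with multimappers excluded. The deposited table gives these counts unnormalized. The annotation release and the strand setting are not given in the sources used here, so genes that overlap on opposite strands (13 of 47 members) or hold near-identical copies are uncertain. Symbols, coordinates and exon lengths were taken from GENCODE M21 (GRCm38) for 54809 genes.

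The members and the other lists were chosen with earlier results of these data known, and nothing here is independent support for a pattern already seen. DESeq2 1.42.0 in R 4.3.3 was fitted once to the 12 libraries, the tool being that of the study's methods, with a term for each group, unshrunken Wald tests and Benjamini-Hochberg adjusted p over all genes tested. Calls needed an adjusted p under 0.05 together with a log2 fold change beyond 0.8 in either direction. Compared were zinc within PBS, zinc within Dex, Dex within water, Dex within zinc, and the interaction. Each p-value sets a difference between groups of 3 mice against a spread between mice that was estimated once for the gene from all 12 libraries. Values in each mouse were given for every member called in any comparison, for *Irf1*, *Irf7*, *Irf9*, *Stat2*, *Isg15*, *Ifit1*, *Ifit3*, *Oas1a*, *Mx1*, *Rsad2*, *Ifih1*, *Bst2*, *Igtp*, *Irgm1*, *Iigp1* and *Gbp2*, and for the 3 members highest per kilobase. Pathway genes were named at an adjusted p under 0.05, except for a result that is not reported here. The scripts were tested on simulated counts with known changes. Alternatives were edgeR 4.0.16 (quasi-likelihood, TMM), TMM factors in DESeq2, a filter of 10 counts or more in 3 or more libraries, the replicate number as a block, no fold threshold, no independent filtering, no Cook filter, only the 6 libraries compared, and leaving out each library. Motifs were searched as spelled, on both strands, in RefSeq promoter windows of GRCm38.p6.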

Additional observations from a re-analysis of the deposited data

How the results depend on the processing

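Called members numbered 11 in water-Dex against water-PBS and 5 in zinc-Dex against zinc-PBS, and 0 in the zinc comparisons and the interaction. Without the fold threshold they numbered 34, 25 and, for zinc with Dex, 1. Leaving out each library in turn gave 8 to 12, 5 to 7, 0 to 1 (zinc with PBS, *Cmpk2*, without water-PBS mouse 3), 0 to 0 and 0 to 0. Counts lower at any fold moved more: 31 in water mice became 20 without water-Dex mouse 2, and leaving out a library gave 16 to 20 in place of 23 in zinc mice. For effectors in zinc mice 14 became 8 without zinc-PBS mouse 3 and 9 without zinc-Dex mouse 1. For GTPases in water mice 8 became 5 without independent filtering or water-PBS mouse 1, and 4 without water-PBS mouse 2 or water-Dex mouse 2. The 3 members higher in water mice became 1 with the replicate block, with only the 6 libraries compared, and without water-PBS mouse 1 or water-Dex mouse 3. The cause was not tested.

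Over 90 results for single genes and 1169 alternatives, 0 reversed, 979 stayed on their side of an adjusted p of 0.05, 189 were lost and 1 was gained. Of the 31 members lower with Dex in water mice, 20 passed in every alternative, and of the 23 in zinc mice 14. Of those higher, 1 of 3 (*Usp18*) and 2 of 2 (*Usp18* and *Irgm1*) did. TMM scaling or edgeR moved the median of all genes by less than 0.01.

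The labels give the groups the same replicate numbers. Deviations of same-numbered libraries from their group means correlated at −0.15 to 0.0547 over 13255 genes, and 0 of 12 libraries correlated best with its own number, so the numbers were not taken to pair the mice. With the replicate number as a block, called members were 11, 5, 0, 0 and 0, and members lower with Dex at any fold were 27 in water mice and 20 in zinc mice.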
